A study of Mus musculus with 6 samples.

Results

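The serpins are the family of serine protease inhibitors, and their transcripts were measured here in the hearts of male mouse pups at postnatal day 6. The members were all probes of the heart array whose gene symbol starts with Serpin, whatever their level. There were 68 such probes for 56 gene symbols, of 25697 probes for 18138 symbols on the array. They were sorted by clade, the letter that follows Serpin in the symbol. Clade A had 26 probes, clade B 29, clade C 2, clade D 1, clade E 2, clade F 4, clade G 1, clade H 1 and clade I 2. Hearts of 3 hSRY-ON and 3 hSRY-OFF pups of the FVB strain (FVB/N in the methods) were compared, with 1 BeadChip array per heart and no other treatment named. The hSRY-ON pups carried Signalox-hSRY, a single-copy transgene at the H11 locus of chromosome 11, in which the ubiquitous CAG promoter drives FLAG-tagged human SRY and EGFP once Cre has removed a DsRed2 cassette. Cre came from the oocytes of Ddx4-Cre mothers, and the methods chose hSRY-ON pups that had not themselves inherited Ddx4-Cre. For hSRY-OFF the sources differ. In the methods these pups carry the transgene without recombination, whereas elsewhere the control littermates lack Signalox-hSRY and may carry Ddx4-Cre, so the genotype of the control hearts is uncertain. The study states biological triplicates. The chip that held each array is not given in the sources used here. Human SRY itself was not analysed here.

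A serpin inhibits by bait. Its exposed reactive centre loop is cut by the target protease, the loop snaps into the body of the serpin, and the protease is dragged along and trapped, so that each molecule works only once. Clade A holds secreted plasma inhibitors, most of them made by the liver, among them the antitrypsins (Serpina1) and antichymotrypsins (Serpina3), which are duplicated many times in mice and rise in blood during inflammation. Clade B members stay mostly inside cells and guard them against their own lysosomal and granule proteases. The remaining clades hold inhibitors of clotting, fibrinolysis and complement, and a few members that inhibit nothing, such as the collagen chaperone Serpinh1.

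The sequences just upstream of 4 of these genes are printed first, because the Serpina3 genes gave the largest differences and arose from one another by duplication. They were read from RefSeq's promoter table for GRCm38.p6, the reference genome, which does not come from this strain. All 56 symbols matched a RefSeq gene, and 45 of them had an entry in the promoter table. In Serpina3g (chr12:104235897-104236146, plus strand) and Serpinb6a (chr13:34002795-34003044, minus strand) the capitals mark the letters TTCNNNGAA, which STAT transcription factors can bind.
Serpina3g: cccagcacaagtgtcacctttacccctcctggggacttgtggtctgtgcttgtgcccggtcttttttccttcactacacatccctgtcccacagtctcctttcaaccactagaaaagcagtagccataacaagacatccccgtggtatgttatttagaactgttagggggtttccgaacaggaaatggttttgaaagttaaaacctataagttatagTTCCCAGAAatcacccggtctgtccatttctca
Serpinb6a: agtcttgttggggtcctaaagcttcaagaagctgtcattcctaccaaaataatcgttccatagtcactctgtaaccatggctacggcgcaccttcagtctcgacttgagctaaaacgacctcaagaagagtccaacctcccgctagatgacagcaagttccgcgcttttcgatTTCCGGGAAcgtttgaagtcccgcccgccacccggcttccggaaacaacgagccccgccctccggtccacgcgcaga
In Serpina3n (chr12:104406458-104406645, plus strand) and Serpina3c (chr12:104153930-104154122, minus strand) the capitals mark the bases that are not identical when the pair is aligned.
Serpina3n: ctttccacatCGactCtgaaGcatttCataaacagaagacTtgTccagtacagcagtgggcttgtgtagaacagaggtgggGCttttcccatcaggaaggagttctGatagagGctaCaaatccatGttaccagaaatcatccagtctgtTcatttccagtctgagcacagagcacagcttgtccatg
Serpina3c: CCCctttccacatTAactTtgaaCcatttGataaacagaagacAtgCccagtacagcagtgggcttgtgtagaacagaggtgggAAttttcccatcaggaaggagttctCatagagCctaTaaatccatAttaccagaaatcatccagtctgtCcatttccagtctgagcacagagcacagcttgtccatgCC

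In that alignment 174 bases were identical, 92.6% of the 188 bases of Serpina3n. Over whole promoter windows Serpina3c and Serpina3n were 91.7% identical, the most alike pair of the Serpina3 genes with an entry. The other pairs ranged from 53% to 76%, with Serpina3g and Serpina3n at 55%. Serpina3h, Serpina3k and Serpina3m had no entry and were not compared. A run of 30 bases that begins at the TTCNNNGAA match of Serpina3g was compared with the best matching run of the other Serpina3 windows, a comparison chosen after the sequences had been seen. Of its 30 bases 28 were identical in Serpina3i, 27 in Serpina3c, 26 in Serpina3n and 23 in Serpina3b, but only 16 in Serpina3a and Serpina3f and 14 in Serpina3j. With positions counted from 1 at the first base of that run, and the Serpina3g base given first, Serpina3c differed by C3A, C14T and G17A, and Serpina3n by the same 3 changes and C24T. The change C3A lies in the fixed letters of the match, so that neither Serpina3n nor Serpina3c held TTCNNNGAA there. The promoter windows were each of 300 bases, from 250 before to 50 after a start site of the promoter table. They were searched on both strands for TTCNNNGAA, for AACAAT, which SRY can bind, and for AACAAAG, which SOX and TCF factors can bind. AACAAT and AACAAAG begin alike but end differently, so that no position matches both. TTCNNNGAA was held by 8.30% of all 32851 windows, AACAAT by 10.7% and AACAAAG by 5.85%. Among the windows of the serpins tested below, Serpina3g held 1 match to TTCNNNGAA, at position -33 from the start, and 1 of the windows of Serpinb6a held 2, at positions -77 and 20. None of these windows held AACAAT or AACAAAG. Serpina3h, Serping1 and Serpinb1a had no entry in the promoter table and were not searched. A match describes the letters only, and its absence says nothing about binding.

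Most serpins gave no signal above background in these hearts. A probe was taken as detected on an array when the deposited detection p-value, which measures how far its signal exceeds that of control beads with no target, was under 0.05. By this rule 50 of the 68 serpin probes (73.5%) were detected on no array, against 41.8% of all probes. Their deposited intensities ranged from 119 to 195 with hSRY-OFF and from 129 to 172 with hSRY-ON. Detection on all 6 arrays was reached by 9 serpin probes, and 42.9% of all probes reached it. By gene, 17 of the 56 symbols had a probe detected on at least 1 array, and 39 had none. Serpin probes detected per heart numbered 13, 12 and 12 among hSRY-OFF replicates 1 to 3, and 13, 14 and 16 among hSRY-ON replicates 1 to 3. There were 6 probes detected on more hSRY-ON than hSRY-OFF arrays, a pattern that 7.87% of all probes had, and 1 with the opposite pattern, which 5.27% of all probes had.

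**Figure D1:**
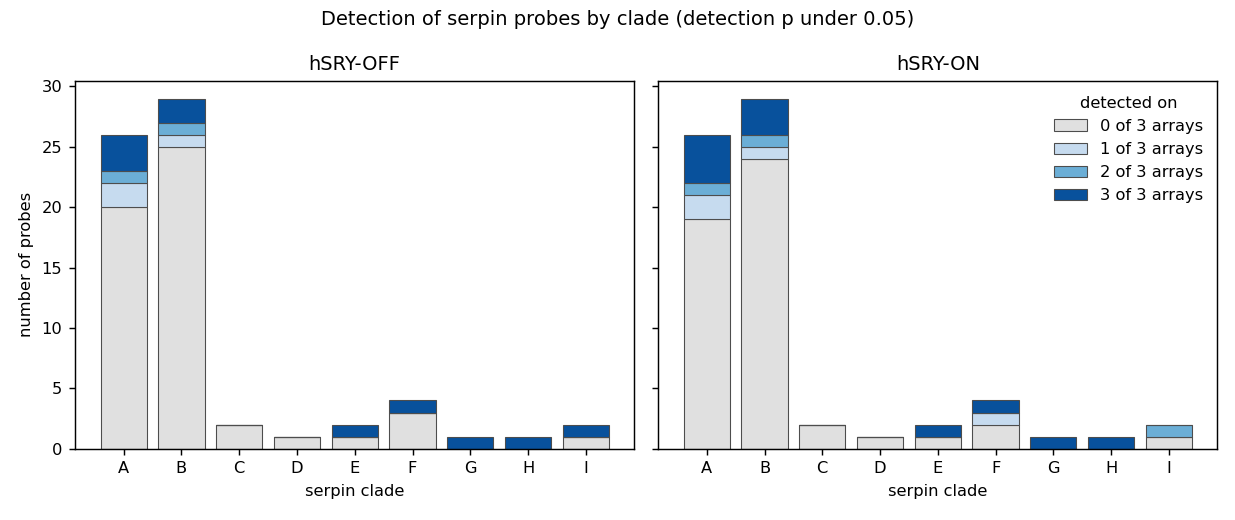
Number of serpin probes (vertical axis) in each clade (horizontal axis), shaded by how many of the 3 arrays detected them at a detection p under 0.05, with hSRY-OFF hearts on the left and hSRY-ON hearts on the right. The pale parts of the bars, probes detected on no array of the group, take up most of clades A and B in both groups, and all of clades C and D.

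The undetected members were spread over the clades. In clade A they included Serpina5, the protein C inhibitor, the hormone carriers Serpina6 and Serpina7, and 5 of the 8 Serpina3 genes with a probe (Serpina3b, Serpina3c, Serpina3f, Serpina3k and Serpina3m). In clade B no probe of the Serpinb3 group (8 probes, 4 genes) or of the Serpinb9 group (7 probes, 6 genes) was detected, and Serpinb9 is the inhibitor of granzyme B. Among the regulators of clotting, antithrombin (Serpinc1) and heparin cofactor II (Serpind1) were undetected too. A probe below background does not show that the transcript is absent. Another 4 probes were detected on 1 or 2 arrays and were not tested, those of Serpina1d, Serpina9, Serpinb6c and 1 of the 3 probes of Serpinf2.

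For the comparison of the groups, the background was removed from the intensities, an offset of 16 was added, and the arrays were brought to a common distribution (quantile normalization) on the log2 scale. Because of the offset, a fold change understates the change of a dim probe. A probe was tested when at least 3 of the 6 arrays detected it. This left 14 serpin probes of 13 genes (20.6% of the serpin probes, against 50.5% of all probes). Each was compared with limma's moderated test, two-sided, in a fit over all 12970 tested probes, and was called different when its p, adjusted by Benjamini-Hochberg over all of them, was under 0.05. Among the 14 serpin probes, 6 were higher in hSRY-ON and 1 was lower, and 7 did not pass. Over all tested probes 27.5% were called, 13.8% higher and 13.7% lower. The hSRY-ON and hSRY-OFF hearts did not overlap for 8 of the 14 serpin probes, and for 45.2% of all tested probes. The median log2 fold change (hSRY-ON minus hSRY-OFF) was 0.47 over the 14 serpin probes and -0.0046 over all tested probes, and the median size without regard to sign was 0.62 and 0.30. Probes that passed the filter mainly through 1 group, such as that of Serpina3g, were favoured by it to differ. These counts therefore describe the probes that could be tested and not the family. The higher probes were those of Serpina3h, Serpina3n, Serpina3g, Serpinb6a, Serpine2 and Serping1, and the lower one was that of Serpini1.

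**Figure D2:**
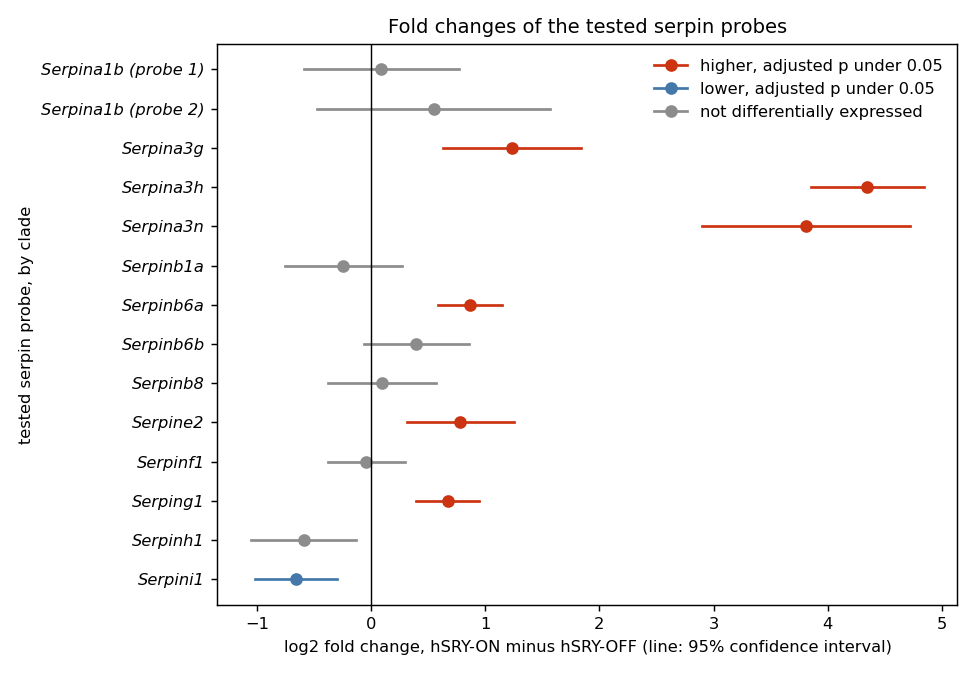
Log2 fold change (hSRY-ON minus hSRY-OFF, horizontal axis) of the 14 tested serpin probes, ordered by clade on the vertical axis, with 95% confidence intervals from limma. Serpina3h and Serpina3n stand at 4.35 and 3.81, and every other probe lies between -0.66 and 1.23.

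The largest differences of the family were those of the Serpina3 genes, the mouse counterparts of human antichymotrypsin. Of their 8 genes with a probe, 3 could be tested, and all 3 were higher in hSRY-ON. Serpina3h is annotated as a transcribed pseudogene in RefSeq. Replicates 1 to 3 of hSRY-OFF, in this order here and below, had normalized log2 intensities of 8.74, 8.51 and 8.87, while those of hSRY-ON had 13.39, 13.16 and 12.60. The hSRY-ON hearts lay far above all hSRY-OFF hearts, and replicate 3 was the lowest of them. The log2 fold change was 4.35 (SE 0.21, limma adjusted p = 4.4e-05), which is 20.3-fold. In the deposited intensities, before any correction, the same probe went from 642, 610 and 468 to 10162, 8949 and 6002.

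Serpina3n encodes a secreted inhibitor of granzyme B and of other granule proteases, and it is a known marker of reactive astrocytes in the brain. Its log2 intensity was 8.42, 8.43 and 8.42 in the hSRY-OFF hearts and 12.23, 13.13 and 11.33 in the hSRY-ON hearts. The hSRY-OFF hearts were nearly equal (SD 0.0059), while the hSRY-ON hearts spread widely (SD 0.90) with replicate 2 highest and replicate 3 lowest, and the groups did not overlap. The log2 fold change was 3.81 (SE 0.39, limma adjusted p = 0.00072), or 14.0-fold. It ranged from 3.36 without hSRY-ON replicate 2 to 4.26 without hSRY-ON replicate 3.

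Serpina3g inhibits lysosomal cathepsins inside cells and is known from lymphocytes and macrophages. It was dim, detected on 1 hSRY-OFF and on all 3 hSRY-ON arrays. Its log2 intensity was 5.27, 5.04 and 5.66 in the hSRY-OFF and 6.27, 7.10 and 6.29 in the hSRY-ON hearts, all 3 above the highest hSRY-OFF heart. Its log2 fold change was 1.23 (SE 0.26, limma adjusted p = 0.011), or 2.35-fold, and 0.41 without background correction, where the probe still passed. On chromosome 12 of the RefSeq annotation Serpina3g and Serpina3h are next to each other among the serpins of this array, and Serpina3n is the last of the cluster. Between Serpina3h and Serpina3n lie Serpina3k and Serpina3m, whose probes were detected on no array. The probe sequences were not used here, so how far the Serpina3h and Serpina3n probes read each other's transcripts, or those of other near copies, was not tested.

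**Figure D3:**
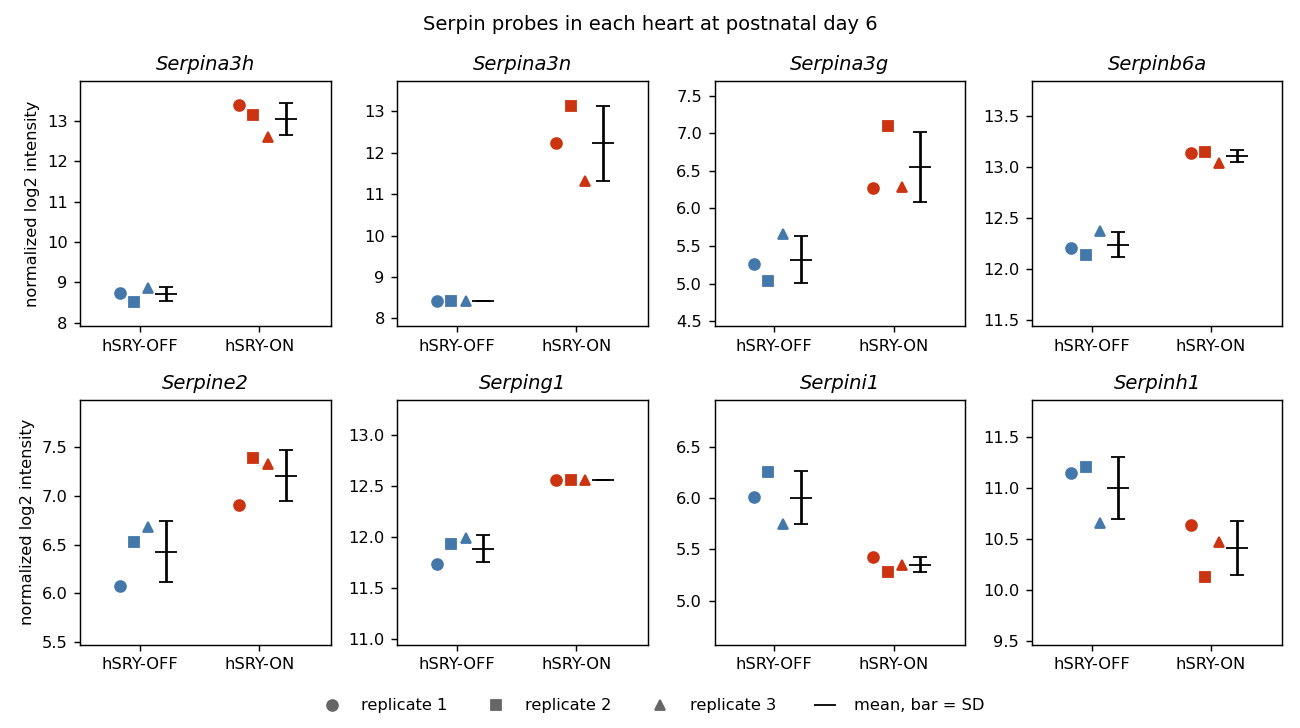
Normalized log2 intensity (vertical axis) of 8 serpin probes in each heart, hSRY-OFF in blue and hSRY-ON in red, with a marker shape for each replicate number and the group mean with its SD (n = 3) as a black bar. The groups do not overlap in any of the 8 panels, with hSRY-ON above in the first 6 and below for Serpini1 and Serpinh1.

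The antitrypsin group of clade A gave no call in limma. Antitrypsin is the main plasma inhibitor of neutrophil elastase, and mice carry several near-identical copies, so that a probe may read more than its own gene, which was not tested. Of 8 probes for 6 Serpina1 genes, 5 were detected on no array, and both tested probes belong to Serpina1b. The first had log2 intensities of 5.89, 5.22 and 5.94 in hSRY-OFF and 5.38, 5.59 and 6.35 in hSRY-ON hearts. Its log2 fold change was 0.09 (95% confidence interval -0.59 to 0.77, limma adjusted p = 0.84). The other had 5.70, 5.39 and 6.73 against 5.84, 6.33 and 7.30, with a log2 fold change of 0.55 (95% confidence interval -0.48 to 1.57, limma adjusted p = 0.39). The groups overlapped for both probes, and replicate 3 was the highest heart of its group in each.

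In clade B, 4 of 29 probes could be tested and 1 was called. Serpinb6a inhibits cathepsin G and other granule and lysosomal proteases within cells. It was bright in all hearts, at 12.21, 12.14 and 12.37 in hSRY-OFF and 13.13, 13.15 and 13.04 in hSRY-ON. The groups lay clearly apart, with an SD of 0.12 in hSRY-OFF and 0.061 in hSRY-ON. This gave a log2 fold change of 0.87 (SE 0.12, limma adjusted p = 0.0020), or 1.83-fold. Without normalization between arrays it was 0.73 (SE 0.30) and did not pass (limma adjusted p = 0.088).

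Its paralog Serpinb6b, an inhibitor of granzyme A, was detected on 2 hSRY-OFF and 3 hSRY-ON arrays. Its log2 fold change was 0.40 (95% confidence interval -0.063 to 0.85, limma adjusted p = 0.18). Serpinb1a, an inhibitor of elastase and cathepsin G in white blood cells, had 6.34, 6.74 and 6.68 in hSRY-OFF and 5.87, 6.55 and 6.61 in hSRY-ON hearts. Its log2 fold change was -0.24 (95% confidence interval -0.75 to 0.27, limma adjusted p = 0.45). Serpinb8, which inhibits the proprotein convertase furin, was detected on 1 hSRY-OFF and 2 hSRY-ON arrays and gave a log2 fold change of 0.10 (95% confidence interval -0.38 to 0.57, limma adjusted p = 0.76). The hSRY-ON and hSRY-OFF hearts overlapped for all 3 of these probes.

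Among the tested inhibitors of clotting, fibrinolysis and complement, Serpine2 and Serping1 were higher in hSRY-ON, and Serpini1 was lower. Serpine2, or protease nexin 1, sits on cell surfaces and blocks thrombin, urokinase and plasmin. Its log2 intensity was 6.08, 6.52 and 6.68 in the hSRY-OFF and 6.91, 7.39 and 7.33 in the hSRY-ON hearts. The lowest hSRY-ON heart, replicate 1, stood 0.23 above the highest hSRY-OFF heart, replicate 3. The log2 fold change was 0.78 (SE 0.20, limma adjusted p = 0.025), or 1.72-fold. It did not pass without hSRY-OFF replicate 1 (0.60), hSRY-OFF replicate 2 (0.83), hSRY-ON replicate 2 (0.69) or hSRY-ON replicate 3 (0.72), nor without normalization between arrays (0.67), and without background correction it passed at 0.35.

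Serping1, the C1 inhibitor, restrains the first proteases of complement and the contact system. Its log2 intensity was 11.73, 11.93 and 11.99 in the hSRY-OFF and 12.55, 12.55 and 12.56 in the hSRY-ON hearts. The hSRY-ON hearts were almost equal and all above the hSRY-OFF hearts. The difference on the log2 scale was 0.67 (SE 0.12, limma adjusted p = 0.0058), or 1.59-fold. Without normalization between arrays it was 0.55 (SE 0.30) and did not pass (limma adjusted p = 0.25).

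Serpini1, or neuroserpin, inhibits tissue plasminogen activator and is best known from neurons. It was dim, detected on all 3 hSRY-OFF and on 2 hSRY-ON arrays, with log2 intensities of 6.01, 6.26 and 5.75 against 5.43, 5.28 and 5.35. All hSRY-ON hearts lay below all hSRY-OFF hearts. Its log2 fold change was -0.66 (SE 0.15, limma adjusted p = 0.018). The call was lost without hSRY-OFF replicate 1 (-0.64), hSRY-OFF replicate 2 (-0.52) or hSRY-ON replicate 2 (-0.62), without normalization between arrays (-0.79) and without background correction (-0.19). The deposited intensities of this probe were 218, 249 and 166 in hSRY-OFF and 172, 171 and 167 in hSRY-ON hearts, so that on the uncorrected scale hSRY-OFF replicate 3 fell below the hSRY-ON hearts.

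The tested serpins that inhibit no protease gave no call in limma at the adjusted threshold, and Serpinh1 alone passed at an unadjusted p under 0.05. Serpinh1, also named Hsp47, holds procollagen in its folded form in the endoplasmic reticulum. Its log2 intensity was 11.15, 11.21 and 10.66 in the hSRY-OFF and 10.64, 10.13 and 10.48 in the hSRY-ON hearts. Each hSRY-ON heart lay below each hSRY-OFF heart, by only 0.018 between hSRY-ON replicate 1 and hSRY-OFF replicate 3. The log2 fold change was -0.59 (SE 0.20, 95% confidence interval -1.05 to -0.13, limma adjusted p = 0.061). It did pass without hSRY-OFF replicate 3 (-0.76, limma adjusted p = 0.023), without background correction (-0.55), with an offset of 50 (-0.58), among probes detected on all 6 arrays and with a variance trend (-0.59 in both). Serpinf1, the pigment epithelium-derived factor that opposes vessel growth, had 10.70, 11.04 and 11.14 against 10.87, 10.93 and 10.96. Its log2 fold change was -0.04 (95% confidence interval -0.38 to 0.29, limma adjusted p = 0.86), with the hSRY-ON hearts inside the range of the hSRY-OFF hearts.

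The proteases that serpins act on were read from 2 lists, with the brightest tested probe standing for a gene. Of 18 plasma and extracellular serine proteases, 5 could be tested, 2 were higher, 1 was lower, and the median log2 fold change was 0.24. Masp1, a complement protease that Serping1 inhibits, was above background on all 3 hSRY-ON and on no hSRY-OFF array, at least 3.39-fold higher in hSRY-ON. It passed the probe filter only through the hSRY-ON arrays, so the filter itself favoured a difference. Without Masp1, 1 gene of this list was higher. The median of 0.24 includes Masp1, and the other tested genes stood at -0.65 (Plau), -0.33 (C1s), 0.24 (Plat) and 0.78 (Furin). A bound such as that of Masp1 sets each hSRY-OFF array at its dimmest detected probe, or at the signal of the probe if brighter. Plau, the urokinase that Serpine2 inhibits, was lower, with a log2 fold change of -0.65 (SE 0.18, limma adjusted p = 0.034), and did not pass without normalization between arrays or with each array scaled to the median of its detected probes. Plat, the target of Serpini1, did not pass (log2 fold change 0.24, SE 0.22, limma adjusted p = 0.45). Furin, the target of Serpinb8, was higher by 0.78 (SE 0.14, limma adjusted p = 0.0058). The probes of 10 genes on this list, the clotting proteases F7, F9, F11 and F12 and plasminogen (Plg) among them, were detected on no array.

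Of 16 granule and lysosomal proteases 14 had a probe and 8 could be tested, with 4 higher, 1 lower and a median log2 fold change of 0.44. The mast cell tryptase Tpsab1 rose most, by 1.73 (SE 0.13, limma adjusted p = 0.00020), and was detected on 2 hSRY-OFF and 3 hSRY-ON arrays. The lymphocyte granzyme Gzmm was the one that fell, with a log2 fold change of -1.81 (SE 0.18, limma adjusted p = 0.00067). Ctsl, Ctsh and Ctsk, lysosomal cathepsins, were higher as well, by 1.44, 1.18 and 0.61. The named targets of Serpina3n, Serpinb6a and the antitrypsins, which are granzyme B (Gzmb), cathepsin G (Ctsg) and neutrophil elastase (Elane), were detected on no array.

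Of 14 cofactors and clearance receptors 11 were tested, 2 were higher, 1 was lower, and the median log2 fold change was 0.13. Lrp8, a receptor of the lipoprotein family whose members take up serpin-protease complexes, was above background on no hSRY-OFF array with either tested probe. It was at least 4.30-fold higher in hSRY-ON by the brighter probe and at least 2.76-fold by the dimmer one. Lrp8 too passed the filter only through the hSRY-ON arrays, which leaves Anxa2 as the other gene counted as higher. The median of 0.13 includes Lrp8. Lrp1, the main such receptor, did not pass (log2 fold change 0.21, SE 0.22, limma adjusted p = 0.51). Vtn, or vitronectin, an adhesive protein of plasma and matrix, was lower. Its log2 intensity was 7.62, 8.36 and 8.19 in hSRY-OFF and 5.33, 4.81 and 5.67 in hSRY-ON hearts, where 1 array detected it, and its log2 fold change was -2.79 (SE 0.27, limma adjusted p = 0.00053).

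Of 18 collagen chains and partners of Serpinh1 in collagen folding, 16 were tested, 6 were higher and none lower, with a median log2 fold change of 0.31. At an unadjusted limma p under 0.05, 9 were higher and 1 was lower, and without normalization between arrays 1 was called higher. The largest increase was that of Plod2, a lysyl hydroxylase, by 1.12 (SE 0.22, limma adjusted p = 0.0087). Fkbp10, which works beside Serpinh1 on procollagen, was higher by 0.88 (SE 0.13, limma adjusted p = 0.0025). The fibrillar chains Col1a1 (0.05, limma adjusted p = 0.79) and Col3a1 (-0.60, limma adjusted p = 0.076) did not pass, while the basement membrane chains Col4a1 and Col4a2 were higher by 0.48 and 0.50.

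**Figure D4:**
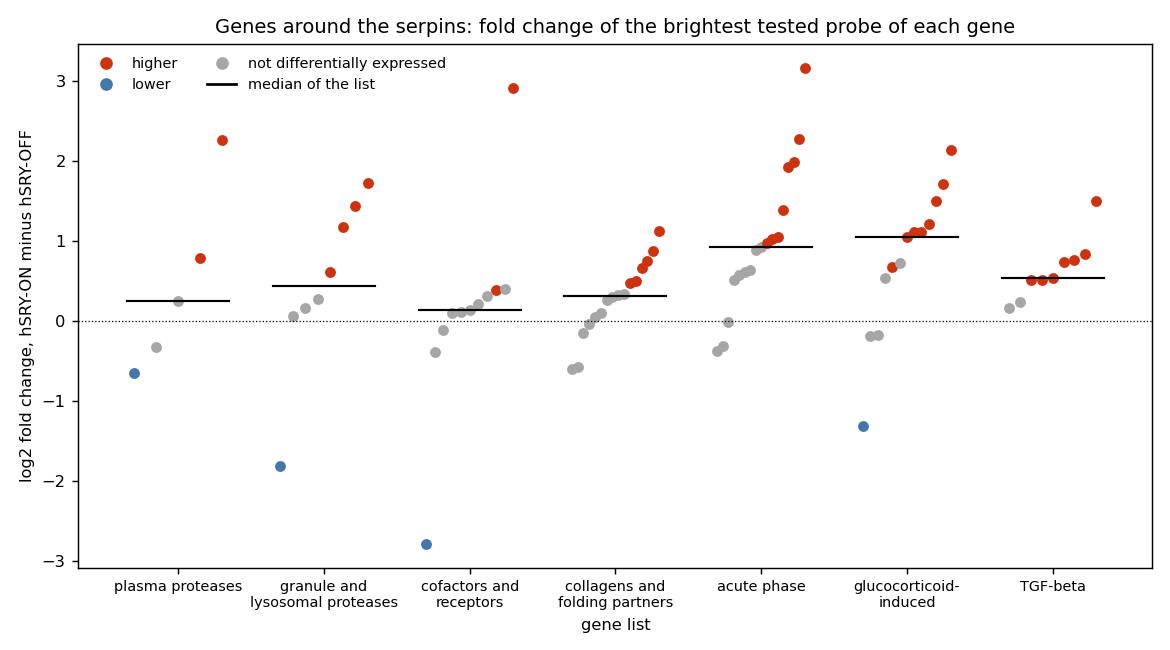
Log2 fold change (hSRY-ON minus hSRY-OFF, vertical axis) of every tested gene of 7 lists (horizontal axis), with 1 point per gene from its brightest tested probe and a black line at the median of the list. Points above 0 in red and below 0 in blue passed the test, and the medians run from 0.13 for cofactors and receptors to 1.06 for glucocorticoid-induced genes. The medians include genes, such as Masp1, Lrp8, Lcn2 and Hif3a, that passed the probe filter only through the hSRY-ON arrays.

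Several clade A serpins are known to be induced in the acute phase, the systemic response to inflammation that interleukin-6 and STAT3 drive in the liver, and glucocorticoids and TGF-beta are known inducers of other members. Of 25 acute phase genes 17 were tested, 8 were higher, none was lower, and the median log2 fold change was 0.93 (at an unadjusted limma p under 0.05, 13 were higher and 0 lower). The largest increase was that of Timp1, an inhibitor of metalloproteases, by 3.17 (SE 0.14, limma adjusted p = 3.4e-05). Lcn2, which binds bacterial iron carriers, was above background on no hSRY-OFF array and at least 3.77-fold higher. Lcn2, counted among the 8, passed the filter only through the hSRY-ON arrays, as did Hif3a among the glucocorticoid-induced genes given next. So did Itih3, counted among the 13 but not the 8, and the median of 0.93 includes Lcn2 and Itih3. Itih4, also among the 8, passed only through the hSRY-ON arrays on a dimmer tested probe and not on the one counted. Stat3 itself did not pass on any of its 3 probes, and the brightest of them had a log2 fold change of 0.58 (SE 0.23, limma adjusted p = 0.11). Of 14 glucocorticoid-induced genes 13 were tested, 8 were higher and 1 was lower, with a median of 1.06, the value of Hif3a itself. Fkbp5 was the highest of them, at 2.14 (SE 0.31, limma adjusted p = 0.0024), and Pdk4 fell, with a log2 fold change of -1.32 (SE 0.23, limma adjusted p = 0.0055). Of 12 TGF-beta ligands, receptors and targets 9 were tested and 7 were higher, none lower, with a median of 0.54, and the same counts held at an unadjusted limma p under 0.05. Without normalization between arrays 1 of them passed. The largest increase was that of Ctgf, which was 2.82-fold (limma adjusted p = 0.0020). These lists also hold genes that other cell types of the heart express, and what links them to the serpins was not tested.

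Whole hearts were measured, so fewer cells of a type and less RNA per cell cannot be told apart, and marker lists of 13 cell types were read beside the serpins. The tissue label was met by the cardiomyocyte markers, of which all 5 with a probe were tested. Of these, 4 (Myh6, Tnni3, Ryr2 and Pln) were lower in hSRY-ON, and the summed normalized intensity of the list ran from 46096 to 57481 for hSRY-OFF but from 35260 to 42452 for hSRY-ON. Of 8 macrophage markers all were tested and 6 were higher (Cd163 passed the filter only through the hSRY-ON arrays), and their sum ran from 3472 to 4493 for hSRY-OFF and from 7473 to 8422 for hSRY-ON. Of 10 hepatocyte markers 2 were tested and both, Ahsg and Ttr, were higher, though Ttr passed the filter only through the hSRY-ON arrays, and the sum over the list was 428 to 486 against 1619 to 3202. The defining hepatocyte markers Alb and Afp, with Cps1, Cyp2e1 and Rbp4, were detected on no array. The untested Apoa1, Apoa2 and Ambp were detected on 2, 1 and 1 hSRY-ON arrays and on no hSRY-OFF array, and each was highest in hSRY-ON replicate 3, with log2 intensities of 7.23, 7.63 and 5.75. That heart was also the highest of all for Serpina1b (second probe, 7.30) and Serpina1d (6.34). Of 7 neutrophil markers 4 were tested and 0 were called by limma (1 at an unadjusted p under 0.05, and 2 without normalization between arrays), while the sum was 664 to 865 against 882 to 3775, and Elane was detected on no array. The part of these shifts in the differences of Serpina3h, Serpina3n and the other serpins was not tested. Among the remaining lists, epithelium had 4 of 5 tested genes higher, fibroblast 1 of 6 higher, smooth muscle and pericyte 2 of 6 higher, platelet and megakaryocyte 1 of 5 higher and adipocyte 2 of 4 higher. Endothelium had 2 higher and 2 lower of 7, T and NK cell 1 lower of 1 tested, and mast cell and mesothelium 0 called of 3 each, with 0 and 1 at an unadjusted limma p under 0.05. Beside the counts of every list, 13.8% of all tested probes were called higher and 13.7% lower.

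The arrays were alike in the number of probes detected but less so in brightness. Each hSRY-OFF heart gave 12138 to 12925 detected probes and each hSRY-ON heart 12704 to 13172. Mean deposited intensity was 878, 939 and 631 in hSRY-OFF replicates 1 to 3 and 723, 757 and 726 in hSRY-ON replicates 1 to 3. The dimmest array was that of hSRY-OFF replicate 3. Over all tested probes the normalized values of hearts of 1 group correlated at 0.983 to 0.992. Those of different groups correlated at 0.940 to 0.960, with probes that are not independent replicates. The precision is limited by having 3 arrays in each group, and an exact permutation test of a single probe could not give a two-sided p below 0.1.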

How the data were processed

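Total RNA of 6 hearts was converted to biotin-labelled cRNA and hybridized to Illumina MouseRef-8 arrays. For each probe the authors deposited a linear, not normalized bead intensity and a detection p-value against control beads. The study names TCC for normalization without settings, and the submitters' processing notes name limma. No genome build enters the values.

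Here, limma 3.58.1 in R 4.3.3 was run with neqc (normal-exponential background from the detection p-values, offset 16, quantile normalization, log2), lmFit and eBayes on 2 groups with no covariate, and p-values adjusted over all 12970 tested probes. Steps were tested on simulated data, where a true log2 change of 1 was called for 72% of the changed probes and one of 2 for 96%. These changes were placed only on probes brighter than those of Serpina3g, Serpine2 and Serpini1, so the dim serpins were not covered. Serpins called were named with every heart's value, other tested serpins by value and interval, and in each list the called genes with the largest increase and decrease. Plat, Furin, C1s, Ctsl, Ctsh, Ctsk, Lrp1, Fkbp10, the collagen chains, Lcn2, Itih3, Itih4, Hif3a, Anxa2 and Stat3 were named after their values were seen. The members, gene lists and marker lists were chosen with earlier results of these data known. Sequences came from RefSeq, searched with Python 3.11.15 and aligned with Biopython 1.88. Figures used matplotlib 3.10.9. Settings varied were the background correction, offset, normalization, probe filter, variance model, replicate block and each heart. Protein and probe sequences were not used here, and 1 member is not reported here.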

Additional observations from a re-analysis of the deposited data

How the results depend on the processing

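The count of 6 serpin probes higher in hSRY-ON was 5 among probes detected on all 6 arrays, 5 to 6 when any 1 heart was left out, and 6 under the other alternatives except one. Without normalization between arrays 3 were called, those of Serpina3h, Serpina3n and Serpina3g, where the median change over every tested probe was -0.12. In that setting every tested serpin probe had the same SE, 0.30, in place of 0.12 for Serpinb6a and Serping1 and 0.20 for Serpine2. The count of 1 lower probe became 2 with an offset of 50 and with a variance trend, where Serpinh1 was added, and 2 with no probe filter, where the added probe was Serpinb2 (-0.40), detected on no array. It was 0 without normalization between arrays and with detection at p under 0.01, and 0 to 2 when 1 heart was left out. It stayed at 1, but with Serpinh1 in place of Serpini1, without background correction and among probes detected on all 6 arrays. The cause was not tested. Signs turned only for probes that never passed. With 1 heart left out, the first probe of Serpina1b ranged from -0.19 (hSRY-ON replicate 3) to 0.29 and Serpinf1 from -0.17 to 0.051 (hSRY-OFF replicate 3). Serpina1b was -0.14 without hSRY-OFF replicate 2. Serpinb8 gave -0.038 without normalization, and Serpinf1 gave 0.070 with scaling to the median of detected probes and 0.0094 with scaling in the manner of TCC. Over all alternatives the log2 fold change of Serpina3h stayed between 3.96 and 4.57 and that of Serpina3n between 3.36 and 4.26, and both passed in each.

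At a detection p under 0.01, 8 serpin probes were detected on all 3 hSRY-OFF arrays (10 at 0.05) and 11 on all 3 hSRY-ON arrays (11 at 0.05). Over the tested probes, the deviations of same-numbered hearts from their group means were hardly correlated (-0.025, 0.038 and -0.066). With 3 hearts per group this cannot show whether the numbers pair the hearts, and the labels do not say. With the replicate number as a block, 6 serpin probes were higher and 1 lower, and 2842 of all probes were called in place of 3567. Depth limits the dim members. For the 50 serpin probes below background the arrays set no level, and without background correction Serpina3g gave 0.41, Serpine2 0.35 and Serpini1 -0.19. List counts under other scalings were chosen after seeing the data. Without normalization between arrays the genes called higher numbered 1 among the plasma proteases, 1 among the cofactors and receptors, and 0 in endothelium, in place of 2 in each.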
